A study of Homo sapiens with 4 samples.

Results

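The histone genes described here form the large replication-dependent cluster on the short arm of chromosome 6. The 50 members are the protein-coding H1, H2A, H2B, H3 and H4 genes of the GENCODE annotation with a transcript start between 26 and 28 Mb of chromosome 6 in the hg19 (GRCh37) build, out of 20163 protein-coding genes in all. They comprise 6 H1, 11 H2A, 12 H2B, 10 H3 and 11 H4 genes, and histone genes without an entry in that annotation were not analysed here. Acetylation of histone H3 at lysine 27 (H3K27ac), a mark of active promoters and enhancers, was measured by chromatin immunoprecipitation and sequencing in 4 human cancer cell lines. COLO-205 comes from a colon cancer, DU-145 from a prostate cancer, and OVCAR-3 and SKOV-3 from ovarian cancers. All 4 lines were grown in medium with fetal bovine serum, COLO-205 and OVCAR-3 in RPMI, DU-145 in Eagle minimal essential medium and SKOV-3 in a McCoy medium, and the labels give no treatment. The study used the mark to ask whether predicted non-coding mutations lie in active regulatory regions. Each line is represented by 1 library, so no difference between lines was tested, and the values of the 4 lines stand side by side.

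Replication-dependent histones package newly copied DNA, and their genes are switched on together when cells enter S phase. Core histones H2A, H2B, H3 and H4 form the nucleosome, and the linker histone H1 binds the DNA between nucleosomes. The genes lie close to each other, have no introns in their usual transcripts, and end in a stem-loop instead of a poly(A) tail. They are transcribed in a nuclear compartment, the histone locus body, that is organised around the coactivator NPAT.

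The peak lists held 85576 peaks in COLO-205, 75468 in DU-145 cells, 76093 in OVCAR-3 and 14001 in SKOV-3 cells, and the number of sequenced tags computed from them ranged from 22.4 M to 36.0 M. A promoter peak was found at 3 of 5 colon markers in COLO-205 (CDX2, VIL1 and LGALS4), with no peak at KRT20 or CDX1. CDX2 and VIL1 were marked in COLO-205 alone, whereas LGALS4 was also marked in DU-145 and OVCAR-3. All 5 ovarian and Mullerian markers had a peak in OVCAR-3, but only PAX8 and SOX17 did in SKOV-3, and 3 of the 5 had one in COLO-205 and 2 in DU-145. In DU-145 the prostate marker TMPRSS2 had a peak, while KLK3 and KLK2 had none. COLO-205 had a peak at all of these prostate markers and OVCAR-3 at TMPRSS2. The 3 leukocyte markers had no peak in any line. Chromosome 6 held 6.65% of the peaks in COLO-205, 3.28% in DU-145 cells, 2.54% in OVCAR-3 and 5.7% in SKOV-3 cells. Whether chromosome copy number had a part in the values below was not tested.

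The members fall into 3 groups of neighbours separated by more than 200000 bp. The first runs from H1-1 to H4C8 and holds 29 genes in 267.7 kb. The second runs from H2BC11 to H2AC12 with 5 genes in 14.3 kb, and the third from H2BC13 to H2BC17 with 16 genes in 85.5 kb. There are 8 pairs of members that are transcribed away from each other, 7 of which join an H2A and an H2B gene with 193 to 250 bases between the starts. In the remaining pair, H3C7 and H2BC9, 978 bases lie between the starts. The whole stretch between the starts is shown for 3 of the pairs, on the plus strand of hg19, because it serves as the promoter region of both genes. Capitals mark TATAAA (the TATA box), CCAAT (the box bound by NF-Y) and ATTTGCAT (the octamer bound by POU2F1) on either strand. The region of H2AC17 and H2BC17 is chr6:27860964-27861202, that of H2BC12 and H2AC12 is chr6:27114635-27114884, and that of H2AC14 and H2BC14 is chr6:27782556-27782799.
H2AC17-H2BC17: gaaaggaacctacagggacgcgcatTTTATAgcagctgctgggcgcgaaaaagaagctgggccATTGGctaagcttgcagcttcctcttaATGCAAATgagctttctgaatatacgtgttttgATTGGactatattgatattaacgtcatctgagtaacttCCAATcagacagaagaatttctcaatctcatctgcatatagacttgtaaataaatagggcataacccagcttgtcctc
H2BC12-H2AC12: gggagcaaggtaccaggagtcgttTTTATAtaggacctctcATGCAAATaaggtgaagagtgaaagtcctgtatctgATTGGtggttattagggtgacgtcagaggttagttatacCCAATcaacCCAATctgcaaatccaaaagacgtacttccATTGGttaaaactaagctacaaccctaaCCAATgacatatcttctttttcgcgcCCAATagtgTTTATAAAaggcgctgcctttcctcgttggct
H2AC14-H2BC14: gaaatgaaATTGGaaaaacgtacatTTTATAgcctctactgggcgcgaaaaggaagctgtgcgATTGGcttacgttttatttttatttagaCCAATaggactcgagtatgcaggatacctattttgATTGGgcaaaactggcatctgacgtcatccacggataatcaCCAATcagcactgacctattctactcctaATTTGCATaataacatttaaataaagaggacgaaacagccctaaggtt
The pairs H2AC17-H2BC17 and H2BC12-H2AC12 had a promoter peak in all 4 lines, and H2AC14-H2BC14 had one in every line but OVCAR-3. A single octamer was found in each of the 3 stretches.

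For the H1 family, 1 gene marked in all 4 lines is set beside 1 marked in none, and H4C7 is shown as the only H4 gene unmarked in all lines. The 150 bases before the canonical transcript start are given 5′ to 3′ on the strand of the gene, with the same capitals and, in addition, AAACACA (the H1 box). All 3 genes lie in the first group of neighbours. The stretches are chr6:26056699-26056848 for H1-2, chr6:26108364-26108513 for H1-6 and chr6:26247225-26247374 for H4C7, all on the minus strand.
H1-2: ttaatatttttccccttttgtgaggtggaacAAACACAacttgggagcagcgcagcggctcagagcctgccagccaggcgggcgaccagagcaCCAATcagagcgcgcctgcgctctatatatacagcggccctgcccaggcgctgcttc
H1-6: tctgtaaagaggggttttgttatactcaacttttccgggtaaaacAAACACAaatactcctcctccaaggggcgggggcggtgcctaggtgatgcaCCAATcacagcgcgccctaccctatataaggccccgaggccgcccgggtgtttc
H4C7: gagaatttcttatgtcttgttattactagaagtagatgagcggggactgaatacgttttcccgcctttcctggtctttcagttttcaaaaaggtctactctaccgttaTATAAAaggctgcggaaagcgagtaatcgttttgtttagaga
H1-2, marked in all 4 lines, and H1-6, marked in none, both hold 1 H1 box and 1 CCAAT. H4C7 holds 1 TATAAA and no CCAAT within these bases.

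Histone genes of the cluster were marked in each line. A promoter peak, meaning a deposited peak within 1 kb of any annotated start, was found at 38 of 50 members (76.0%) in COLO-205, against 51.1% of all protein-coding genes. It was found at 37 (74.0%) in DU-145 against 59.8% of all genes, at 34 (68.0%) in OVCAR-3 against 60.5%, and at 27 (54.0%) in SKOV-3 against 31.6%. In all 4 lines the share of marked members was above that of all genes, by the smallest margin in OVCAR-3 for the full lists. With the same 14001 strongest peaks kept in every list, 24, 23, 30 and 27 members stayed marked in COLO-205, DU-145 and the ovarian lines OVCAR-3 and SKOV-3. The members then stood at 48.0%, 46.0%, 60.0% and 54.0% against 21.8%, 37.8%, 37.9% and 31.6% of all protein-coding genes, and the smallest margin was in DU-145.

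Across the lines, 19 members (38.0%) were marked in all 4, against 25.2% of all genes. A further 11 members were marked in exactly 3 lines (18.0% of all genes), 10 in exactly 2 (16.5%), 7 in exactly 1 (15.4%) and 3 in none (25.0%). The members without a peak in any line were H1-1, H1-6, which is the linker histone of the testis, and H4C7. Marked in 1 line were H4C9 and H4C13 in COLO-205, H4C3 and H4C11 in DU-145 cells, and H3C4, H3C6 and H2BC9 in OVCAR-3. Every member marked in SKOV-3 was marked in at least 1 other line. Of its 27 marked members, 25 (92.6%) were also marked in COLO-205, 24 (88.9%) in DU-145 cells and 20 (74.1%) in OVCAR-3. Of all genes marked in SKOV-3, 84.3%, 94.8% and 95.4% were also marked in these lines in the same order. As shares of the other lists the overlaps were 65.8%, 64.9% and 58.8% for members and between 49.8% and 52.0% for all genes. Without SKOV-3, 26 members were marked in all of the remaining lines, against 38.1% of all genes.

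**Figure D1:**
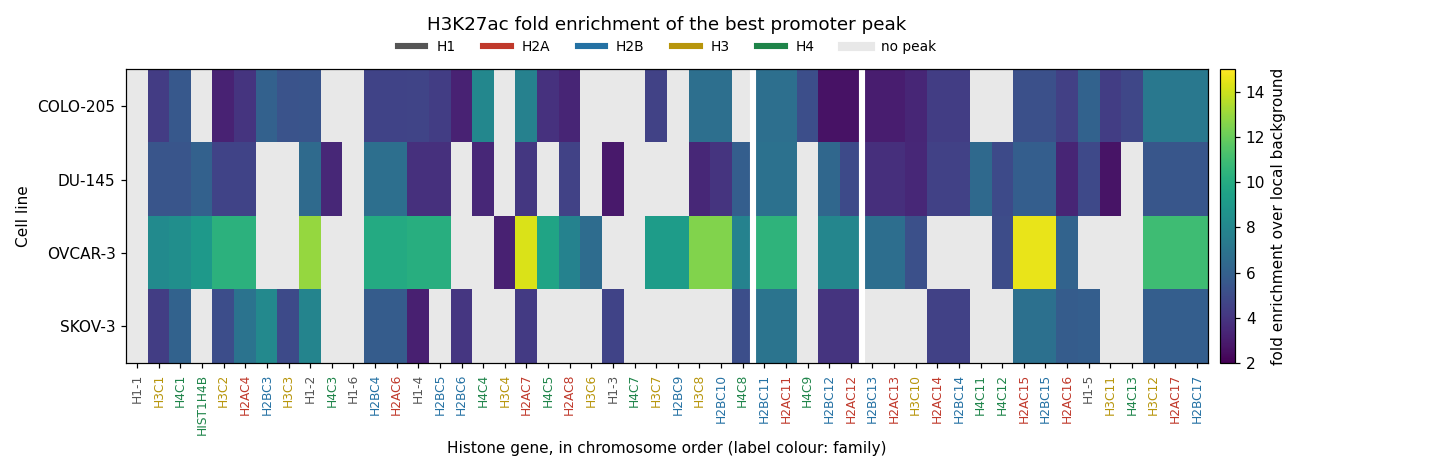
Fold enrichment over the local background (colour) of the promoter peak with the highest −log10 q for each of the 50 histone genes in chromosome order (columns) and each cell line (rows, 1 library each), with grey where there was no peak and white gaps between the 3 groups of neighbours. Blocks of 2 or more adjacent genes share a value because they share a peak, and OVCAR-3 has grey stretches where other lines are coloured.

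Counts at single genes depend on which start is used and on neighbours that share a peak. A single annotated start was held by 41 of the members, and 9 had 2 or 3. H3C12 was marked only through an alternative start 2280 bases before its canonical start, next to H2AC17. Likewise, H2BC6 was marked through a start 11702 bases upstream and H3C6 through one 936 bases upstream. With canonical starts only, these 3 genes joined H1-1, H1-6 and H4C7, so that 6 members had no peak in any line (29.7% of all genes). The counts were then 36 in COLO-205, 36 in DU-145 cells, 32 in OVCAR-3 and 25 in SKOV-3 cells, against 44.7%, 56.1%, 56.6% and 29.0% of all genes, and 18 members were marked in all 4 lines (22.6% of all genes). The 38, 37, 34 and 27 marked members used only 29, 27, 23 and 20 different best peaks in the same order of lines. When every summit within 1 kb was given to the nearest canonical start, 31, 32, 32 and 22 members had a peak of their own.

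The families differed in how many of their members were marked. H2A was the family with the highest share, with all 11 genes marked in COLO-205 and DU-145 cells, 10 in OVCAR-3 and 9 in SKOV-3, and 8 marked in all 4 lines. Of the 12 H2B genes, 11, 9, 9 and 8 were marked in COLO-205, DU-145 and the ovarian lines OVCAR-3 and SKOV-3, 5 of them in all lines. H2A and H2B genes share peaks in their divergent pairs, so their counts are not independent. With each summit given to the nearest canonical start, 8, 9, 10 and 6 H2A genes and 9, 9, 9 and 7 H2B genes had a peak of their own, and the H2A share was no longer the highest in COLO-205 and SKOV-3. Of the 10 H3 genes, 8, 6, 8 and 4 were marked in the same order, 3 of them in all lines. Of the 11 H4 genes, 5, 7, 5 and 2 were marked, the lowest share of a family in COLO-205 and SKOV-3, and H4C1 was the only H4 gene marked in all 4 lines. Of the 6 H1 genes, 3, 4, 2 and 4 were marked, and H1-2 and H1-4 were marked in all 4 lines. Members with a divergent partner were marked in 15, 14, 14 and 12 of 16 cases, and members without one in 23, 23, 20 and 15 of 34.

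**Figure D2:**
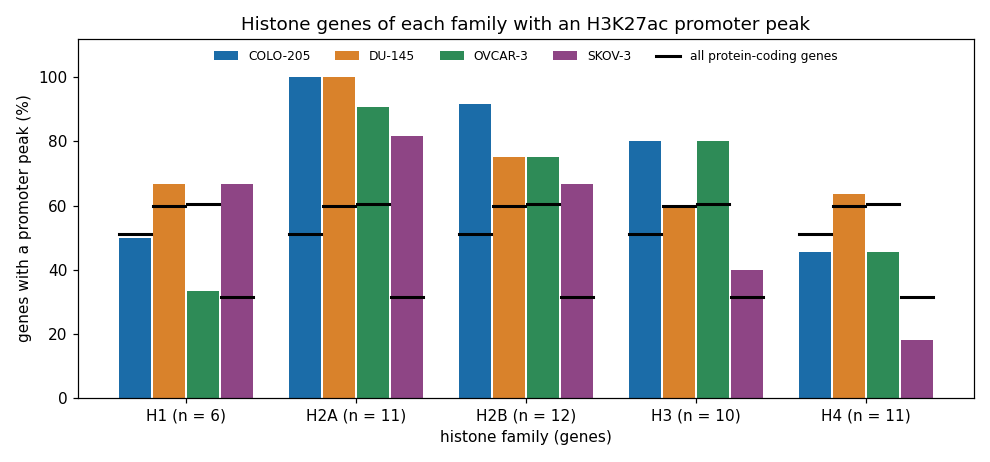
Percentage of the genes of each histone family (x axis, with the number of genes) that had a promoter peak, with 1 bar for each cell line and a black line at the share of all protein-coding genes in that line. H2A and H2B bars stand above the black line in all 4 lines, whereas the H4 bars stand above it only in DU-145.

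The strength of the mark was compared within each library as the fold enrichment at the summit of the best promoter peak, which is the peak with the highest −log10 q. Over all 50 members, with 0 where there was no peak, the median fold was 4.35 in COLO-205, 4.03 in DU-145 cells, 7.86 in OVCAR-3 and 3.96 in SKOV-3 cells. The medians over all protein-coding genes were 2.76, 3.45, 4.56 and 0 in the same order. The member median was 0 in COLO-205 and DU-145 with equal peak numbers, and in SKOV-3 it was 1.56 with canonical starts or windows of 500 bp and 0 with a −log10 q of at least 10. Fold enrichments are not scaled between libraries, and OVCAR-3 had the highest median for all genes as well. Among all genes with a promoter peak in the same library, the −log10 q of the marked members had a median percentile of 64.9 in COLO-205, 46.1 in DU-145 cells, 68.8 in OVCAR-3 and 50.5 in SKOV-3 cells. The highest percentile of a member was 90.8, 86.1, 85.6 and 80.0 in the same order.

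Among the linker histones, H1-2 had a fold of 5.38 in COLO-205, 6.48 in DU-145 cells, 12.96 in OVCAR-3 and 7.88 in SKOV-3 cells. The tags under its summit, recovered from the deposited values, numbered 46 in COLO-205 (exact Poisson 95% interval 33.7 to 61.4), 93 in DU-145 cells (75.1 to 113.9), 110 in OVCAR-3 (90.4 to 132.6) and 45 in SKOV-3 cells (32.8 to 60.2). These intervals cover counting error only. H1-2 had the highest percentile of the members in DU-145 and SKOV-3, at 86.1 and 80.0. H1-4 had folds of 4.68, 3.8, 10.14 and 3.12 in COLO-205, DU-145 and the ovarian lines OVCAR-3 and SKOV-3, and its SKOV-3 peak of 31 tags lay at the percentile of 3.9. H1-5 had no peak in OVCAR-3, and its fold was 6.1 in COLO-205, 4.85 in DU-145 cells and 5.88 in SKOV-3 cells. H1-3 was marked in DU-145 (2.9-fold) and SKOV-3 (4.61-fold) only.

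Among the core histones that form the H2A-H2B dimer, the strongest median belonged to H2BC11 and H2AC11, which shared a peak of 6.75-fold in COLO-205, 6.84-fold in DU-145 cells, 10.46-fold in OVCAR-3 and 6.99-fold in SKOV-3 cells. The peak shared by H2AC15 and H2BC15 had a fold of 5.16, 5.86, 14.55 and 6.78 in the same order, and 138 tags in OVCAR-3 (115.9 to 163.0). It had the highest fold and −log10 q of the best member peaks of OVCAR-3, where the highest number of tags was 142. H2AC17 and H2BC17, the last genes of the cluster, shared a peak of 7.2-fold in COLO-205, 5.48-fold in DU-145 cells, 10.97-fold in OVCAR-3 and 5.91-fold in SKOV-3 cells. This was also the peak given to H3C12, whose canonical start had none. H2AC13 had the lowest median of the H2A family, with folds of 3.02, 3.73 and 6.7 in COLO-205, DU-145 and OVCAR-3 and no peak in SKOV-3 cells. H2BC9 was marked only in OVCAR-3, by 2 peaks. The more significant one (9.2-fold) had its summit at −1338 bases from the start of H2BC9 and at 359 bases from that of H3C7, inside H3C7, and the other (7.01-fold) had its summit at 328 bases, inside H2BC9. Of the 8 divergent pairs, both genes were marked in 7, 7, 7 and 6, and they had the same best peak in 7, 6, 7 and 6 of these.

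Among the H3 and H4 genes, H3C1 had folds of 4.33 in COLO-205, 5.44 in DU-145 cells, 8.2 in OVCAR-3 and 4.34 in SKOV-3 cells, and its neighbour H4C1 had 5.59, 5.44, 8.42 and 6.07. In DU-145 both were covered by the same peak of 1718 bp, the widest at any member, with its summit 171 bases inside H3C1. H3C8 had folds of 6.76, 3.47 and 12.55 in COLO-205, DU-145 and OVCAR-3, and no peak in SKOV-3 cells. The summits of these peaks lay between −1019 and −964 bases from its start. They were nearer to the start of H2BC10, at −554, −499 and −549 bases from it. In OVCAR-3 a second peak (7.29-fold) had its summit at 289 bases from the start of H3C8, inside the gene. H3C4 had a peak only in OVCAR-3, of 3.19-fold with 61 tags (46.7 to 78.4), which was the lowest fold of a member in that line. H4C8 had folds of 5.88 in DU-145 cells, 7.75 in OVCAR-3 and 5.12 in SKOV-3 cells and was unmarked in COLO-205. HIST1H4B, also named H4C2, had folds of 6.06 in DU-145 and 8.99 in OVCAR-3 and no peak in the other lines. H4C3 was marked only in DU-145, by a peak of 3.46-fold with 28 tags (18.6 to 40.5). H4C4 had a fold of 8.01 in COLO-205, which was the highest of any member in that line, one of 3.45 in DU-145 and no peak in the ovarian lines.

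**Figure D3:**
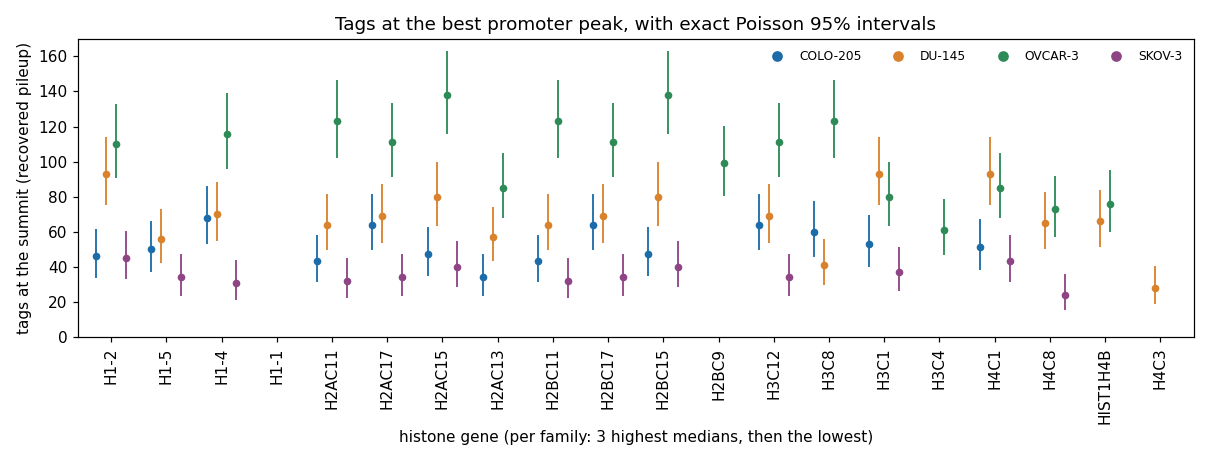
Tags at the summit of the best promoter peak (y axis, recovered from the deposited values and not scaled for depth) for the 3 histone genes of each family with the highest median fold and the 1 with the lowest (x axis), with 1 point per cell line and bars for the exact Poisson 95% interval of the count. H1-1 has no point because it had no peak, and the OVCAR-3 points of H2AC15 and H2BC15 at 138 tags are the highest.

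OVCAR-3 was unmarked at several runs of neighbours that other lines marked. H2BC3 and H3C3 were marked in COLO-205 (6.06-fold and 5.34-fold) and SKOV-3 (8.12-fold and 4.9-fold) but had no peak in the other lines. H2AC14 and H2BC14 had none in OVCAR-3 but shared a peak in COLO-205 (4.35-fold), DU-145 (4.51-fold) and SKOV-3 (4.52-fold). H1-5, H3C11 and H4C13 lie next to each other and were unmarked in OVCAR-3, whereas COLO-205 marked all 3 of them (6.1-fold, 4.34-fold and 4.75-fold). Conversely, H3C4, H3C6 and H2BC9 were marked in OVCAR-3 alone. SKOV-3 was unmarked from H2BC13 to H3C10 and from H4C7 to H2BC10, where OVCAR-3 marked all members but H4C7. In the third group of neighbours 14 of 16 genes were marked in COLO-205, 15 in DU-145 cells, 10 in OVCAR-3 and 9 in SKOV-3 cells. In the first group, of 29 genes, 19, 18, 20 and 14 were marked in the same order.

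Most peak summits at the members lay within the annotated span of a histone gene, which is 37610 bases at H2BC4. No such count was made over all genes. Summits within 1 kb of a member's canonical start, each given to the nearest start, were at a median of 225.5 bases downstream in COLO-205, 223 in DU-145 cells, 251 in OVCAR-3 and 217.5 in SKOV-3 cells. Over all protein-coding genes the median was 189 bases in COLO-205, 156 in DU-145 cells and 164 in SKOV-3 cells, and in OVCAR-3 it was lower than in the other lines. Of the member summits, 28 of 36 in COLO-205, 29 of 42 in DU-145 cells, 32 of 47 in OVCAR-3 and 19 of 26 in SKOV-3 cells fell within a histone gene. Downstream of the start lay 77.8%, 83.3%, 80.9% and 73.1% of member summits, against 72.1%, 65.6%, 66.6% and 74.7% for all genes. Between 100 and 200 bases downstream lay 13.9%, 19%, 17% and 15.4% of member summits, against 21.2%, 26.7%, 33.6% and 31.4% for all genes. Between 200 and 300 bases downstream lay 30.6%, 38.1%, 19.1% and 30.8%, against 20.4%, 19.6%, 14.6% and 18.9%. The shares between 100 and 400 bases downstream were 66.7%, 57.1%, 55.3% and 57.7% for members and 50.4%, 51.1%, 52.9% and 58.2% for all genes. Within 100 bases of the start there were summits at members only in DU-145 (4.76%), against 4.85 to 6.57% for all genes. With every annotated start in place of the canonical one, the share of all genes within 100 bases rose to 22.6 to 29.3%, since further starts shorten the distance, and that of members to at most 6.82%.

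**Figure D4:**
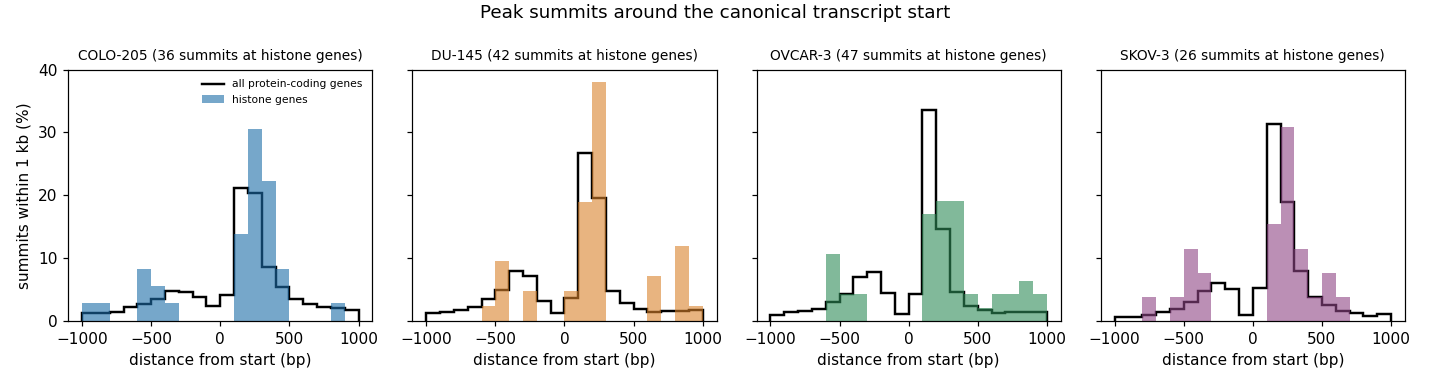
Percentage of the summits within 1 kb of the nearest canonical start (y axis) in bins of 100 bases by distance from that start (x axis, positive downstream), for histone genes (filled) and all protein-coding genes (black line) in each cell line. The highest bin of the histone genes is that of 200 to 300 bases downstream, tied in OVCAR-3 with the next bin, and the highest bin of all genes is that of 100 to 200 bases.

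The members share promoter motifs that the choice of genes did not use. Within the 250 bases before the canonical start, on either strand, TATAAA was found in 34 of 50 members (68.0%) and in 9.4% of all protein-coding genes. CCAAT was found in 43 members (86.0%) and in 34.1% of all genes. All H1, H2A, H2B and H3 members held a CCAAT, but only 4 of 11 H4 genes did. The octamer ATTTGCAT was found in 18 members (36.0%), 9 of 11 H2A and 9 of 12 H2B genes and none of the other families, and in 1.53% of all genes. AAACACA was found in 6 members (12.0%), which were the 6 H1 genes, and in 3.7% of all genes. Matches of the 4 motifs did not overlap in any member, and the windows of divergent partners largely cover the same bases. Of the 19 members marked in 4 lines, 14 held TATAAA, 19 CCAAT and 11 the octamer. In the 21 members marked in 2 or 3 lines these numbers were 15, 16 and 6. Of the 10 marked in at most 1 line, 5 held TATAAA, 8 CCAAT and 1 the octamer. The groups differ in family, as 8 of the 19 were H2A and 5 were H2B genes. Among the 10, H2BC9 was the only H2A or H2B gene. Motif and family were therefore not separated in these counts. All motif counts are matches of letters and not measured binding.

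The 3′ ends and encoded proteins were compared within the cluster. A perfect stem-loop, with 6 paired bases on each side of a loop of 4, was found within 150 bases after the stop codon in 45 members. The form was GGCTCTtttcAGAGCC in 28 of them, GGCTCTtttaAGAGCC in 7, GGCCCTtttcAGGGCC in 8 and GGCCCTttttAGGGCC in 2, with the stem in capitals. The forms with a GGCCCT stem were found only at H4 genes. A perfect stem-loop was not found within these bases at H3C6, H2BC10, H2AC11, H2AC15 and H4C13. All 10 H3 genes encoded the same protein of 136 residues, and 10 of 11 H4 genes the same protein of 103 residues. The exception was H4C7 with 98 codons. The 10 H3 genes with 1 protein were marked in between 1 and 4 lines, 3 of them in all 4. The 11 H2A genes encoded 6 different proteins, the 12 H2B genes 10 and the 6 H1 genes 6.

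Near-identical copies can leave reads without a single place to map. Within 1 kb of the canonical start, a median of 98.5% of the stretches of 50 bases occurred once in the genome, with a range of 77.0 to 100% over the members. The median was 100% for the 10 members marked in at most 1 line, 98.2% for the 21 marked in 2 or 3, and 97.2% for the 19 marked in all 4. The lowest values were 77.0% at H4C11, marked in DU-145 only, and 78.1% at H4C12, marked in DU-145 and OVCAR-3. At the unmarked H1-1 and H1-6 the value was 100%, and at H4C7 it was 96.6%. The read length was not given in the sources used here, so 50 bases is an assumption.

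Both edges of the cluster were examined. The histone genes nearest outside the window, H2AC1 and H2BC1, known from the testis, had no promoter peak in any line. The first member, H1-1, also had none, and the mark began at H3C1 in all 4 lines. At the other edge, the last members H2AC17 and H2BC17 were marked in all 4 lines. Of the 17 other protein-coding genes with a start in the window, 6 were marked in COLO-205, 14 in DU-145 cells, 9 in OVCAR-3 and 4 in SKOV-3 cells. One of these, a readthrough gene, shares its start with H2AC7. The butyrophilin genes BTN3A1, BTN3A2 and BTN3A3 were marked in DU-145 alone, and BTN2A1 was marked in all 4 lines. The 15 replication-dependent histone genes of the annotation on other chromosomes were marked in 6, 6, 10 and 0 cases in the same order of lines, with a median fold of 7.15 in OVCAR-3 and 0 in the other lines. H2BC21, H2AC20, H2AC21, H2BC18, H3C13 and H4C16 were those marked in COLO-205 and DU-145, and none was marked in SKOV-3. Identical values were found at H2BC21, H2AC20 and H2AC21, and in COLO-205 and OVCAR-3 at H2BC18 and H3C13, so these counts are not independent. The share of unique stretches was not computed for histone genes on other chromosomes.

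Genes that act on histone genes were counted from a list of 16. The median fold over the list was 3.54, 5.12, 6.83 and 4.05 in the order of lines used above. A promoter peak was found at 10 of them in COLO-205, 16 in DU-145 cells, 15 in OVCAR-3 and 11 in SKOV-3 cells. Marked in all 4 lines were SLBP, which binds the stem-loop, LSM11 of the U7 particle that processes histone transcripts, CASP8AP2, POU2F1, E2F1, CCNE1, CPSF2, ERI1 and NCBP1. SLBP had folds of 8.85, 6.8, 18.17 and 9.98 in COLO-205, DU-145 and the ovarian lines OVCAR-3 and SKOV-3, and CCNE1, the cyclin that drives entry into S phase, had 4.72, 6.56, 35.23 and 5.62. NPAT had a promoter peak only in DU-145 (5.05-fold), and HINFP, a factor of H4 promoters, only in DU-145 (5.2-fold) and OVCAR-3 (4.09-fold). Of 11 replication-independent histone genes, which are expressed outside S phase, 8 were marked in SKOV-3 and all 11 in each of the other lines. H2AJ and H2AZ2 were among those without a peak in SKOV-3.

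Peaks between the genes were examined over the whole window. It held 87 peaks in COLO-205, 167 in DU-145 cells, 92 in OVCAR-3 and 40 in SKOV-3 cells, which is 0.102%, 0.221%, 0.121% and 0.286% of each list. At histone starts there were 39, 48, 52 and 28 peaks, and at other protein-coding starts 5, 20, 11 and 4. The peaks more than 1 kb from any protein-coding start numbered 43 in COLO-205, 99 in DU-145 cells, 29 in OVCAR-3 and 8 in SKOV-3 cells. The order of the lines depended on the length of the lists, as with 14001 peaks in each the counts were 2, 26, 2 and 8. Of the peaks in the full lists, 28 of 43, 72 of 99, 4 of 29 and 2 of 8 were in no other line. Inside the 3 groups of neighbours lay 11 of the 43, 17 of the 99, 14 of the 29 and 6 of the 8 peaks between genes. At histone starts, 3 of 39, 6 of 48, 11 of 52 and 0 of 28 peaks were in no other line, which was a lower share than between genes in every line but OVCAR-3, where it was higher.

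**Figure D5:**
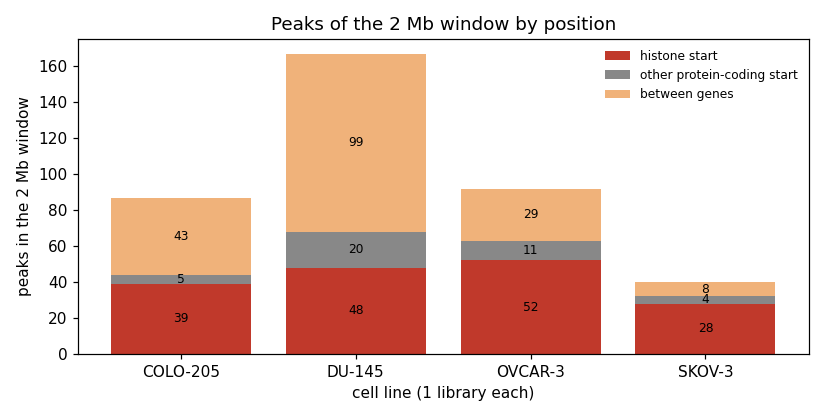
Number of peaks in the 2 Mb window (y axis) in each cell line (x axis, 1 library each), split into peaks within 1 kb of a histone start, peaks within 1 kb of another protein-coding start and peaks between genes. Peaks at histone starts range from 28 to 52, and peaks between genes from 8 in SKOV-3 to 99 in DU-145.

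Merged over the lines, the peaks between genes formed 137 regions, of which 107 were found in 1 line, 21 in 2, 7 in 3 and 2 in all 4. Both regions found in all lines lay in the first group of neighbours. The first, at chr6:26053133-26053477, lies 3221 bases from the start of H1-2 outside any annotated gene. Its fold was 4.89 in COLO-205, 5.61 in DU-145 cells, 4.85 in OVCAR-3 and 5.34 in SKOV-3 cells. The second, at chr6:26121842-26122367, lies 1765 bases from the start of H2BC4 in an intron of a longer H2BC4 transcript, with folds of 6.85, 5.86, 8.25 and 7.31. It held the most significant peak between genes of COLO-205 (−log10 q of 17.9).

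The most significant peak between genes in DU-145 (−log10 q of 53.2), OVCAR-3 (75.2) and SKOV-3 (21.8) was the same region. It lies at chr6:26987416-26988139 over exons of the long non-coding RNA genes LINC00240 and LARRPM, 112188 bases from H2BC11, and had no peak in COLO-205. In OVCAR-3 the peak also reached an exon annotated as TRNAI2. The next in OVCAR-3 (55.6) and SKOV-3 (17.4) was at chr6:26924154-26924800, over exons of GUSBP2 and LINC00240. In DU-145 the next were a peak at chr6:27486758-27487232, in an exon of a long non-coding RNA gene (44.4), and one at chr6:27720273-27721129, outside any annotated gene (41.7). In COLO-205 they were at chr6:27780599-27780847, 1708 bases from H2AC14 (15.1), and at chr6:27229908-27230170 (12.4), both outside any annotated gene. The third of OVCAR-3, at chr6:27804597-27804959, lay 1194 bases from H2AC15 (30.0), and the third of SKOV-3 was the region in the H2BC4 intron (14.9). Transfer RNA genes, which are known to lie in this stretch of chromosome 6, were not analysed here as a class.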

How the data were processed

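H3K27ac was profiled in 4 cancer cell lines, 1 library each. The authors mapped reads to hg19 with Bowtie2 2.1.0 and called narrow peaks per library with MACS2 2.1.0.20150603 at a q-value below 0.001. The deposited score is 10 times the −log10 q as a whole number. The deposited fold enrichment is a ratio over the local background of the same library, and the deposited −log10 p and −log10 q refer to the summit. None of these is scaled between libraries. The methods mention merging of peaks less than 350 bp apart, but closer neighbours are present, so the lists were used as they stand, and a merged version served as an alternative.

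A gene was called marked when a peak overlapped 1000 bp either side of any of its transcript starts (GENCODE 44 lifted to GRCh37, the build of the lists). The best peak was that with the highest −log10 q. No test was run, since no line has replicates, and counts stand beside all 20163 protein-coding genes. The fold enrichment and −log10 p gave back the tag pileup and background under the summit (tolerance 0.001) of at least 99.92% of peaks, and tag totals were computed with 2700000000 genome positions. The steps were tested on simulated data. Motifs were searched in 250 bases before the canonical start, and stretches of 50 bases were counted over the whole genome. Histone genes without an entry in the annotation, and transfer RNA genes, were not analysed here. A few genes and a promoter sequence are not reported here. Named genes are, per family, the 3 with the highest median fold and the 1 with the lowest, members marked in at most 1 line, the edges, the genes of each list that were missing or marked in all lines, and the 3 most significant peaks between genes of each line. Further genes, such as H1-3, H4C4 and the runs unmarked in OVCAR-3 or SKOV-3, were named after their values were seen. Members, lists and rules were chosen with earlier results of these data known. Other settings tried were peaks with −log10 q from 5 or from 10, windows of 500 bp and 2 kb, 1 start per gene, the summit in the window, merging and equal peak numbers. The settings with canonical starts and without SKOV-3 were chosen after seeing the data. The tools were biopython 1.88, numba 0.67.0, matplotlib 3.10.9, scipy 1.17.1, numpy 2.4.6 and pandas 2.3.3 under Python 3.11.15.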

Additional observations from a re-analysis of the deposited data

How the results depend on the processing

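Of 118 values under an alternative, 102 stayed within 1.5 times the reported value and 16 did not. With a −log10 q of at least 10, SKOV-3 marked 16 histone genes (median fold 0), and peaks between genes fell to 5 in COLO-205, 63 in DU-145 cells, 15 in OVCAR-3 and 3 in SKOV-3 cells. With equal peak numbers, COLO-205 marked 24 members and DU-145 23 (median fold 0 in both), and peaks between genes numbered 2 in COLO-205, 26 in DU-145 cells and 2 in OVCAR-3. These settings keep fewer peaks. With 500 bp windows or canonical starts only, the median fold of SKOV-3 was 1.56, and with 2 kb windows it had 5 peaks between genes. SKOV-3 has the shortest list, so a member without a peak there may be below detection. No paired analysis was possible because each line has 1 library.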
